A study of Oryza sativa with 4 samples.

Results

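The cytosolic small heat shock proteins of rice described here are the products of HSP16.9A, HSP16.9B, HSP16.9C, HSP17.4, HSP17.7, HSP17.9A, HSP18.0 and HSP18.1. Their probe sets were taken by name: those that the array annotation gives to a single gene whose symbol or synonym in the reference gene table is 1 of these 8. This gave 11 of the 57381 probe sets on the array, for 7 of the 8 genes, out of 17905 genes with a probe set of their own. HSP16.9C had none in the annotation used here. The locus of HSP16.9A (LOC4325697) also carries HSP16.9B as a synonym, and that of HSP18.1 (LOC4332361) carries HSP18.0, so each was called by the name listed first. Of the 11 probe sets, Os.37773.1.S1_x_at of HSP18.1 and Os.31700.2.S1_s_at of HSP18.0 are of the kinds that may match several gene copies.

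Small heat shock proteins are chaperones that work without ATP. They bind unfolding proteins as large oligomers and keep them soluble, so that ATP-driven chaperones such as HSP70 and the CLPB disaggregases can refold them. In the plant cytosol they fall into classes by sequence, of which HSP18.0 belongs to class II in rice and the others to class I. Their genes are known for steep induction by heat through heat stress factors (HSFs), and some are also expressed during normal development.

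Total RNA from panicle primordia at the stage labelled 0 had been measured on 4 Affymetrix arrays, 2 biological replicates each of the cultivars Pusa1266 and Pusa Basmati 1. Both are of the Indica Group, untreated as far as the labels say, and no growth temperature or hour of harvest is given in the sources used here. The characteristic label gives a high grain number per panicle to Pusa1266 and a low one to Pusa Basmati 1, whereas the titles call both low. The labels do not say how many plants were pooled for a replicate, so the p-values cover only the spread between these samples.

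The arrays were not on 1 level: after 2% was trimmed from each end, the mean signal was 78.4 and 89.4 in Pusa1266 against 138 and 155 in Pusa Basmati 1. Log2 differences below are Pusa1266 minus Pusa Basmati 1 after 16 was added to each signal and the arrays were quantile normalized. A call is a Benjamini-Hochberg adjusted p under 0.05 in limma over 30029 tested probe sets. With 2 arrays against 2, an exact permutation test cannot give a p below 0.333, so the calls rest on variance that limma shares across probe sets. In the labelled tissue, all 9 listed marker genes of the young panicle meristem had a tested probe set, and the knotted homeobox gene OSH1 had signals of 2211 and 2279 against 2032 and 2094. The 3' to 5' signal ratio of the GAPDH control, a sign of RNA integrity, was 20.3 and 18.5 in Pusa1266 against 7.55 and 8.50 in Pusa Basmati 1. Ratios of the actin, cyclophilin and ubiquitin controls were also higher in Pusa1266, by 1.85, 1.24 and 1.42 times, and the part of RNA integrity in the results was not tested.

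The signals of these chaperone genes differed between the cultivars by widely unequal amounts. Whether the cultivars differ in sequence at the probes, or in the genes they carry, was not tested. HSP18.1 was 52.0-fold lower in Pusa1266 at one probe set and 24.1-fold lower at the other, HSP16.9A 6.36-fold and HSP16.9B 4.92-fold (n = 2 per cultivar throughout). HSP17.7, HSP17.4 and HSP17.9A stood at 1.70-fold, 1.30-fold and 1.21-fold lower. The last 2 turned to 0.08 and 0.09 on the log2 scale when the arrays were scaled by their trimmed means. HSP18.0 had probe sets in both directions, the highest of them 7.92-fold higher in Pusa1266. Whether all 3 of its probe sets measure this gene could not be checked without probe sequences. In bulk tissue, fewer cells of a type and less RNA per cell cannot be told apart.

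**Figure D1:**
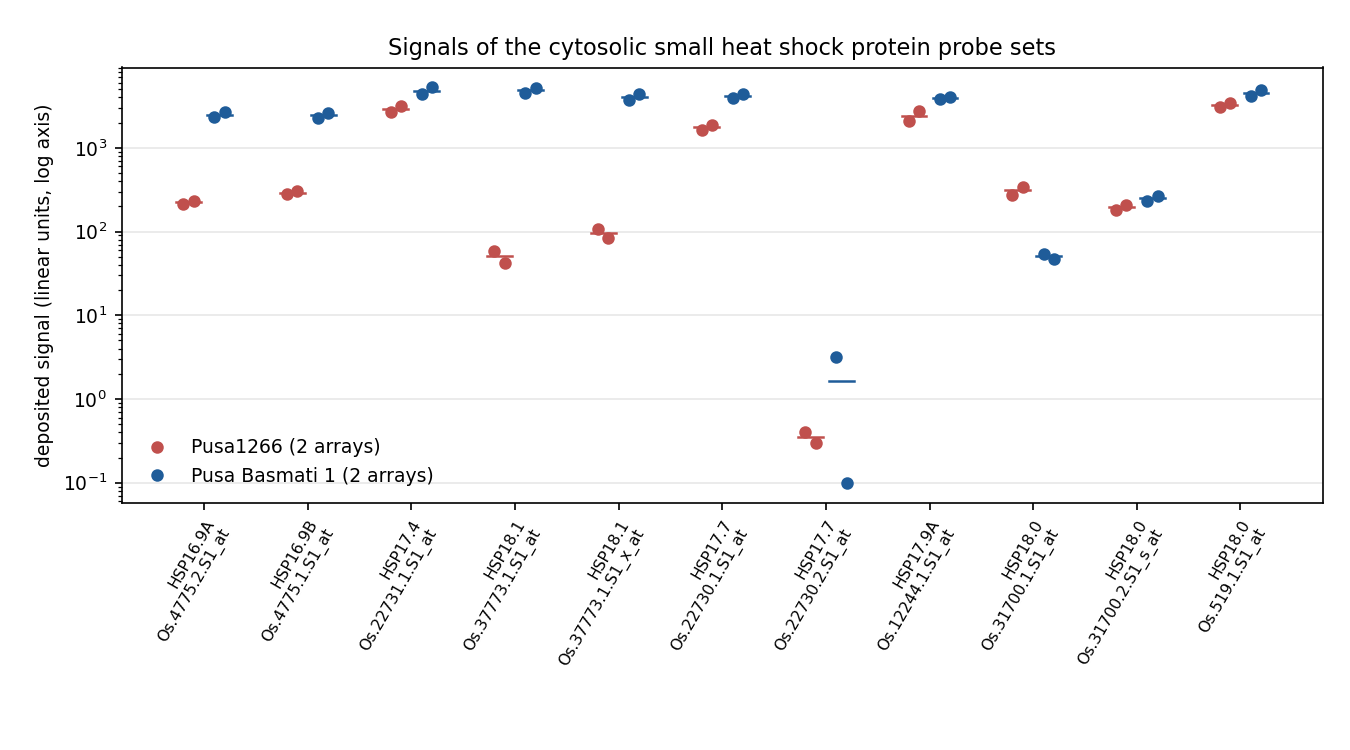
Deposited signals of the 11 probe sets on a log axis, with Pusa1266 on the left and Pusa Basmati 1 on the right of each probe set. Points are the 2 arrays of a cultivar and bars are their means. HSP18.1 shows the widest gap (58.9 and 42.2 against 4552 and 5158), while Os.31700.1.S1_at of HSP18.0 is higher in Pusa1266.

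Of the 10 tested probe sets 8 were called lower in Pusa1266, where 25.3% of all tested probe sets were, and 2 were called higher, where 28.1% were. At 2-fold or more, 4 were lower against a background of 7.64%, and 1 was higher against 5.67%. The 4 were those of HSP16.9A and HSP16.9B and both of HSP18.1, which are not independent. The 10 probe sets stand for 7 genes, chosen with earlier results of these data known. The 2 cultivars did not overlap at any of the 10 after normalization, in 8 cases with Pusa1266 below (35.8% of all tested) and in 2 with it above (40.5%). The median log2 difference was −0.57 over the 10 probe sets and 0.03 over all tested.

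HSP16.9A and HSP16.9B are class I genes that lie next to each other on chromosome 1. In wheat, a protein of this type forms a barrel of many subunits. HSP16.9A had signals of 214 and 231 in Pusa1266 against 2318 and 2676 in Pusa Basmati 1. HSP16.9B (LOC4325698) had 277 and 304 against 2298 and 2641. In both genes the Pusa Basmati 1 arrays were the high ones, and no array of one cultivar came near those of the other. Whether their probe sets share signal with each other or with HSP16.9C could not be checked without probe sequences.

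The log2 difference of HSP16.9A was −2.67 ± 0.06 (SE, adjusted p = 5.44e-08 in limma), and 302 tested probe sets, 1.01%, lay lower. That of HSP16.9B was −2.30 ± 0.06, with 1.48% lower. The 95% intervals of the 2 probe sets, −2.81 to −2.53 and −2.43 to −2.17, did not overlap. Within single arrays, which needs no scaling between arrays, the log2 ratio of the HSP16.9A signal over the HSP16.9B signal was −0.37 and −0.40 in Pusa1266 against 0.01 and 0.02 in Pusa Basmati 1. The difference between the cultivars in this ratio was −0.40. Whether it lies in the genes or in the probes was not tested.

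In the reference gene order HSP16.6, HSP17.9B, HSP16.9C, HSP16.9A and HSP16.9B follow one another with 0 other genes between them. HSP16.6 and HSP17.9B, small heat shock protein genes outside the set, were lower too. HSP16.6 had signals of 18 and 22 against 112.8 and 199.9 and a log2 difference of −1.57 ± 0.19 (SE). HSP17.9B had 29.1 and 7.4 against 109.3 and 122.1, at −1.40 ± 0.34. Their Pusa1266 signals lay near the added constant of 16, so the sizes of both depend on it.

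The lowering did not extend to every gene beside this run. LOC4325699, which follows HSP16.9B, had signals of 65.1 and 82.6 against 42.6 and 49.2 and was higher in Pusa1266, at 1.21 ± 0.12. The gene after it, LOC4325700, stood at −0.08 (adjusted p = 0.71 in limma). On the other side the calmodulin-like gene CML16 was called lower, at −0.54 ± 0.04 (SE, adjusted p = 2.6e-05 in limma).

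**Figure D2:**
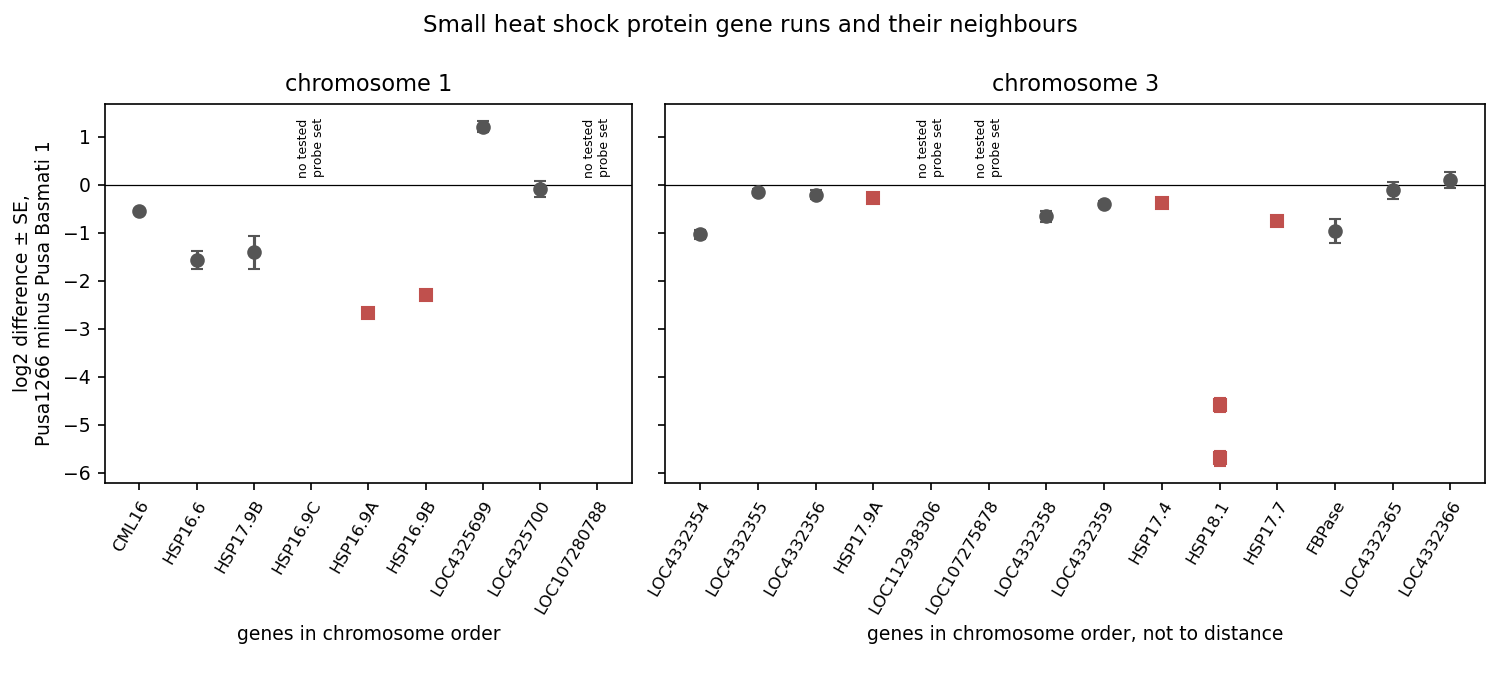
Log2 differences (Pusa1266 minus Pusa Basmati 1, with SE) of the tested probe sets of genes in their chromosome order, not to distance. Red squares are the cytosolic small heat shock protein genes and grey circles their neighbours. The chromosome 1 run stands between −2.67 and −1.40, and on chromosome 3 HSP18.1 stands at −5.70 and −4.59 between HSP17.4 at −0.38 and HSP17.7 at −0.76.

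On chromosome 3 the class I genes HSP17.4, HSP18.1 and HSP17.7 also follow one another with 0 other genes between them, and HSP17.9A lies before HSP17.4 with 4 genes between. HSP18.1 had signals of 58.9 and 42.2 in Pusa1266 against 4552 and 5158 in Pusa Basmati 1 at its probe set Os.37773.1.S1_at. At Os.37773.1.S1_x_at it had 106.9 and 83.4 against 3735 and 4339. In Pusa1266 the signals of the first exceeded those of 74.5% and 70.0% of the probe sets on their array, and in Pusa Basmati 1 those of 99.96% and 99.94%.

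The log2 difference was −5.70 ± 0.16 at the first (SE, adjusted p = 1.22e-07 in limma) and −4.59 ± 0.15 at the second. Only 11 of the 30029 tested probe sets lay lower than the first and 42 lower than the second. Both probe sets come from 1 source sequence and are not independent measurements, and their 95% intervals did not overlap. The ratio of the mean deposited signals, Pusa Basmati 1 over Pusa1266, was 96.0 and 42.4. The first value ran from −6.20 to −5.05 over the 13 alternative settings and the second from −5.19 to −4.19, all of them called lower.

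HSP17.4, on one side of HSP18.1, had signals of 2683 and 3153 in Pusa1266 against 4355 and 5288 in Pusa Basmati 1. HSP17.7, on the other side, had 1652 and 1858 against 3909 and 4438 at Os.22730.1.S1_at. Both genes therefore had bright signals in both cultivars, unlike HSP18.1. The log2 difference was −0.38 ± 0.05 for HSP17.4 (SE, adjusted p = 0.000321 in limma) and −0.76 ± 0.05 for HSP17.7.

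Within arrays, the log2 ratio of HSP18.1 over HSP17.4 was −5.51 and −6.22 in Pusa1266 against 0.06 and −0.04 in Pusa Basmati 1. Over HSP17.7 it was −4.81 and −5.46 against 0.22 and 0.22. The difference between the cultivars in these ratios, −5.88 and −5.35, did not depend on any scaling between arrays. These ratios are given as a description, and no test was run on them.

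HSP17.9A had signals of 2096 and 2722 against 3808 and 4032 and a log2 difference of −0.27 ± 0.08 (SE, adjusted p = 0.0251 in limma). Its call was lost without the first Pusa1266 replicate (−0.15, adjusted p = 0.176) and without the first Pusa Basmati 1 replicate (−0.19, adjusted p = 0.103). Of the 8 tested probe sets of other genes within 3 places of the chromosome 3 members, 4 were lower and 0 higher in limma. Over all tested probe sets the shares were 25.3% and 28.1%. The log2 differences of the 8 lay between −1.04 and 0.10. They included LOC4332359, next to HSP17.4, at −0.40 ± 0.07, and FBPase, a gene named for fructose bisphosphatase and next to HSP17.7, at −0.96 ± 0.26 with signals of 0.8 and 8.3 against 40.7 and 24.7. The Pusa1266 signals of FBPase lay below the added constant, so the size of its difference depends on it.

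The second probe set of HSP17.7, Os.22730.2.S1_at, was too dim to be tested, with signals of 0.4 and 0.3 against 3.2 and 0.1. It gives no direction.

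HSP18.0, the class II gene, lies on chromosome 1 away from the run and had 3 probe sets, each from a source sequence of its own. Os.31700.1.S1_at had signals of 276.5 and 342.8 in Pusa1266 against 54.3 and 46.5 in Pusa Basmati 1. Os.31700.2.S1_s_at had 180.6 and 208.5 against 234.2 and 263.7, and Os.519.1.S1_at had 3061 and 3385 against 4123 and 4882. Only the first was higher in Pusa1266 in the deposited signals.

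After normalization the 3 probe sets of HSP18.0 stood at 2.99 ± 0.11 (SE, adjusted p = 6.29e-07 in limma), 0.50 ± 0.08 and −0.13 ± 0.04. Their 95% intervals did not overlap, so the array gives no single difference for this gene. The first kept its sign and call in all 13 alternative settings, between 2.22 and 3.42. The second turned to −0.33 in the signals as deposited and to −0.10 after median centring, and the third to 0.33 with trimmed mean scaling, where it was called higher. The third also lost its call without either Pusa1266 replicate (adjusted p = 0.169 and 0.118 in limma) and with median centring (−0.24, adjusted p = 0.182).

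Ranked by their differences, the probe sets ran HSP18.1, HSP16.9A, HSP16.9B, HSP17.7, HSP17.4, HSP17.9A and then those of HSP18.0. The 95% intervals of neighbours in this order overlapped for HSP17.4 with HSP17.9A and for HSP17.9A with Os.519.1.S1_at of HSP18.0, and for no other pair of neighbours.

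**Figure D3:**
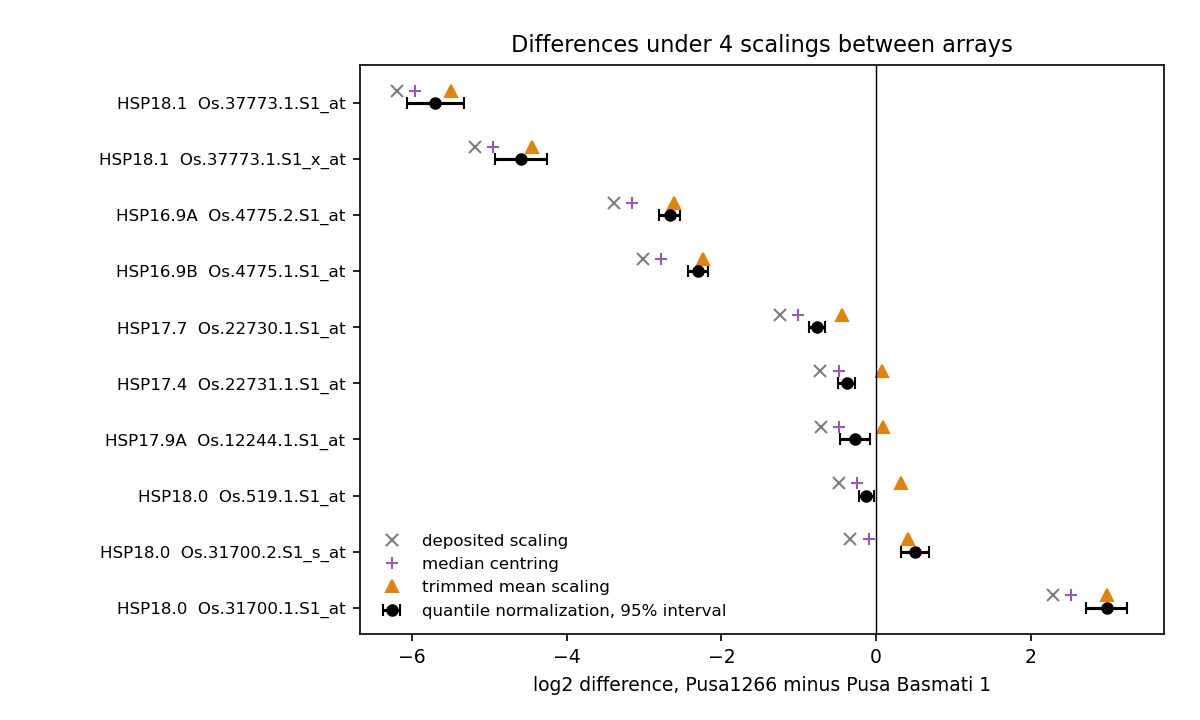
Log2 differences of the 10 tested probe sets, Pusa1266 minus Pusa Basmati 1, with 95% intervals in black after quantile normalization and the values under 3 other scalings above each. Both probe sets of HSP18.1, HSP16.9A, HSP16.9B and HSP17.7 stay below 0 and Os.31700.1.S1_at of HSP18.0 above it under all 4, while HSP17.4, HSP17.9A and the other probe sets of HSP18.0 cross it.

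How the arrays were scaled set the sign of the smaller differences. Under the deposited scaling 59.8% of all tested probe sets were called lower and 5.48% higher, and 8 and 1 of the 10 were. Under trimmed mean scaling the shares were 26.0% and 28.1%, and 5 of the 10 were lower and 3 higher. The 5 were both probe sets of HSP18.1, HSP16.9A, HSP16.9B and HSP17.7.

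Bright probe sets stood apart from the rest mainly under trimmed mean scaling. Bright here means a mean signal of at least 2000, a limit chosen after the values were seen. For the 755 bright tested probe sets the median log2 difference was 0.04 after quantile normalization, −0.43 as deposited and 0.37 after trimmed mean scaling. For the rest of the tested probe sets it was 0.03, −0.56 and 0.03. Set among these bright probe sets, HSP17.4 had 13.5%, 22.9% and 23.2% of them below it under these scalings. HSP17.9A had 19.9%, 23.7% and 23.7%, and HSP17.7 had 5.96%, 7.02% and 7.15%. Os.519.1.S1_at of HSP18.0 had 28.5%, 44.5% and 44.6% below it. The array maxima were 5545 and 6482 in Pusa1266 against 6018 and 6920 in Pusa Basmati 1. The Pusa Basmati 1 signals of HSP17.4 and HSP18.1 thus lay near the top of the range.

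Among other heat shock genes, 27 of 38 tested genes were lower in Pusa1266 and 3 higher, where 25.3% and 28.1% of all tested probe sets were. Their median log2 difference was −0.84, against 0.07 over all tested genes. Of 12 other small heat shock proteins 11 were lower and 0 higher in limma (also 0 at an unadjusted p under 0.05), with a median of −1.55. With trimmed mean scaling 9 of the 12 were lower, where 26.0% of all tested probe sets were. With the deposited scaling all 12 were lower, where 59.8% of all tested probe sets were. HSP21.9 had signals of 36.4 and 47.2 against 683.7 and 776.8 and fell by 2.96 on the log2 scale. HSP26.7, the small heat shock protein of the chloroplast, stood at −2.71 ± 0.11 (SE) and HSP23.2 at −2.23 ± 0.06. HSP22.3 was the 1 gene not called, at −0.10.

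Class A heat stress factors are the family that holds the activators of small heat shock protein genes. They were lower in 9 of 12 cases and higher in 0 in limma (also 0 at an unadjusted p under 0.05), with a median of −0.64. Of all tested probe sets 25.3% were lower and 28.1% higher. HSFA2C stood at −2.32 ± 0.07 (SE), its signals being 275.3 and 344.7 against 2540 and 2694. Its other probe set was called in the opposite direction, at 0.36. HSFA3, a factor of heat and drought responses in Arabidopsis, stood at −2.06 ± 0.06, and HSFA9, a seed factor in sunflower and Arabidopsis, at −1.76 ± 0.12. HSFA9 had signals of 21.0 and 28.6 against 192.4 and 222.5, so the size of its difference depends on the added constant.

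Class B and C factors, of which class B members can repress, were lower in 4 of 7 cases and higher in 2, with a median of −0.33. The shares over all tested probe sets were 25.3% lower and 28.1% higher. HSFB2B, at 41.2 and 52.9 against 735.4 and 816.6, fell by 2.91 on the log2 scale. HSFB1 (−0.98) and HSFB2C (−0.63) were lower as well. Other probe sets of HSFB2C stood at −1.52 and, not called, at 0.09. HSFB1 had signals of 8.1 and 4.7 against 51.2 and 33.1, so its size depends on the added constant. HSFB4B (0.54) and HSFC1B (0.50) were higher, but stood at −0.30 and 0.07 in the deposited signals. There 0 of the 7 were called higher in limma (also 0 at an unadjusted p under 0.05), and 5.48% of all tested probe sets. HSFC1B had signals of 19.8 and 21.5 against 20.5 and 17.6, near the added constant.

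Among 7 large ATP-driven chaperones 3 were lower and 1 higher, where 25.3% and 28.1% of all tested probe sets were. The median of the 7 was −0.11. Under trimmed mean scaling the median turned to 0.26, with 4 higher, where 28.1% of all tested probe sets were. The 3 lower genes were the CLPB disaggregases, which pull proteins out of aggregates. CLPB3 stood at −1.92 ± 0.08 (SE), CLPB2 at −1.78 ± 0.06 and CLPB1 (HSP101) at −1.0 ± 0.06. CLPB1 had signals of 1228 and 1422 against 3708 and 4047. The HSP90-type gene HSP81-3 was higher by 0.15 ± 0.04 at its brightest probe set, which turned to −0.11 in the deposited signals. Its other probe sets lay between −0.26 and 0.26 and were called in both directions. HSP81-1 (−0.11), HSP81-2 (−0.06) and BIP1 (0.01), an HSP70 of the endoplasmic reticulum, were not called.

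**Figure D4:**
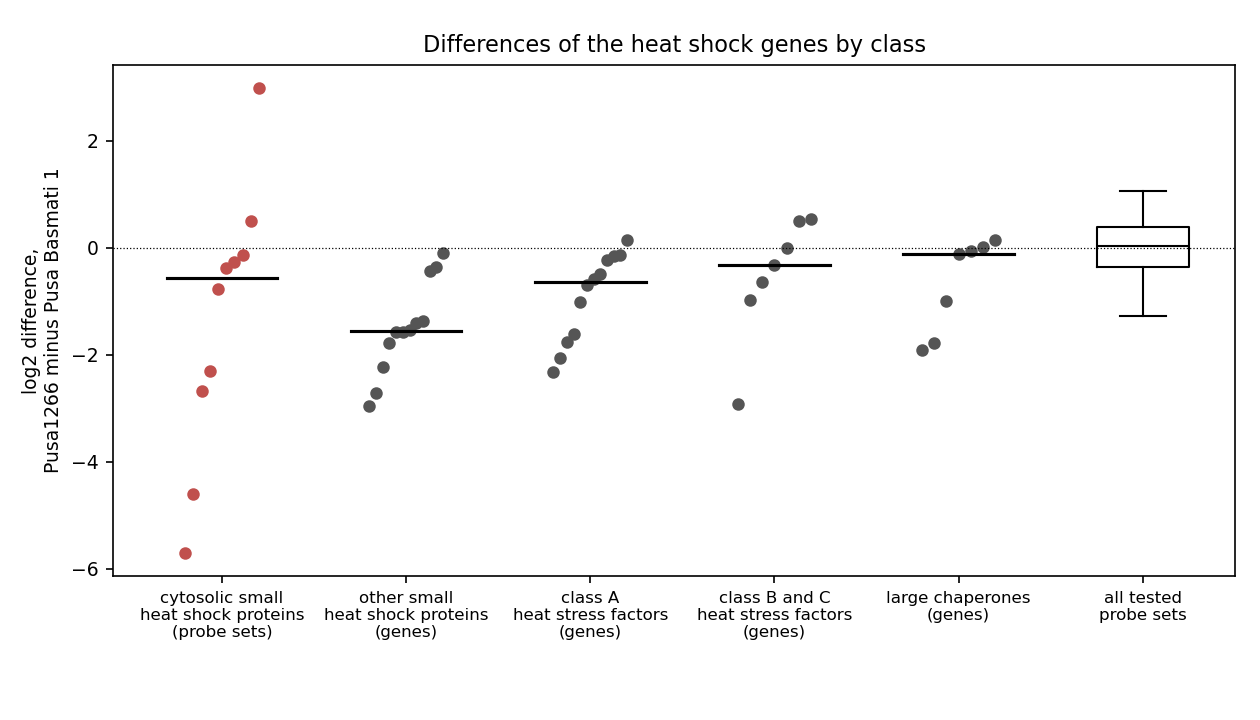
Log2 differences, Pusa1266 minus Pusa Basmati 1, of the 10 cytosolic small heat shock protein probe sets and of the tested genes of 4 other heat shock classes, each point 1 probe set or gene, with horizontal bars at the medians (−0.57, −1.55, −0.64, −0.33 and −0.11). The box shows the quartiles of all 30029 tested probe sets, with whiskers at the 5th and 95th percentiles, around a median of 0.03.

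Markers of other tissue were set beside these results. Of 20 listed green leaf genes only 3 had a probe set in the annotation. All 3 were tested and were lower in Pusa1266 under all 4 scalings. Their summed normalized signal was 1151 and 1014 in Pusa1266 against 2557 and 2597 in Pusa Basmati 1. Most of the deposited sum came from CAB2R, with 784.7 and 781.7 against 2641 and 3091. In Pusa1266 the signals of RBCS (31.4 and 23.3) and RCA (15.6 and 18.2) lay near the added constant of 16. Of the 9 genes of the young panicle meristem 6 were higher and 1 lower, where 28.1% and 25.3% of all tested probe sets were. Their sums were 10337 and 10204 against 7064 and 6682. In the deposited signals 2 of these genes were higher and 4 lower, where 5.48% and 59.8% of all tested probe sets were. Of the 7 genes of later floral organs 3 were higher and 0 lower in limma, with sums of 3402 and 3329 against 3026 and 3023. In the deposited signals 5 of the 7 were lower and 0 higher (also 0 at an unadjusted p under 0.05), against those same shares. The dimmest of these marker genes was MADS13, an ovule identity gene, with 4.4 and 5.5 against 15.2 and 13.0. Its Pusa1266 signals lay below the medians of those arrays, 6.8 and 7.8. The part of tissue makeup in the heat shock differences was not tested.

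The named genes whose values over the 4 arrays lay closest to the average profile of the 10 probe sets were the cyclin-dependent kinase gene CDKG-1, SK2, the protein phosphatase gene PP2C32, ADI1 and the calcium-dependent protein kinase gene CPK20. Their Euclidean distances on the centred log2 scale were 0.11, 0.12, 0.13, 0.13 and 0.13, out of 2149 named genes searched. CDKG-1 had signals of 330.9 and 388.8 against 1457 and 1715, at −1.33 ± 0.06 (SE). The average profile lies between members at −5.70 and 2.99, so a gene close to it need not be close to any one of them.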

How the data were processed

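Each array had 1 deposited intensity, on a linear scale, for every probe set. The submitters' processing notes name GCOS 1.2, and how background and scaling were handled is not given in the sources used here. Samples were grouped by the cultivar in their titles. Control probe sets (123) were not tested, and the remainder had to exceed the array median in 2 or more of the 4 samples, which left 30029. Differences on log2 of the signal plus 16, quantile normalized, were fitted in limma 3.58.1 under R 4.3.3 (lmFit, then eBayes with trend) and adjusted over all tested probe sets. The fit was tested on simulated data. Tables and plots were made with Python 3.11.15, pandas 2.3.3, numpy 2.4.6 and matplotlib 3.10.9. Arrays give no counts, and their number limits the precision.

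Gene identifiers in the array annotation linked probe sets to genes, and names, chromosomes and gene order came from the reference table of assembly ASM3414082v1, a Japonica rice. Coordinates were left out, since no source names the build on which the array was designed. A single gene was annotated for 22436 probe sets, more than 1 for 95 and no gene for 34727. Sequences of the probes, promoters and proteins were not used here.

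The members, the gene lists and the rule for naming genes were chosen with earlier results of these data known. Every member is named, and from each other list the 3 called genes of largest difference in the main direction and up to 3 called the other way. A gene outside the set was represented by its probe set of highest mean. For the neighbouring genes of the chromosomes, those within 3 places of a member were taken. No gene matched the list of co-chaperones. Numbered bip genes that share only letters with the BIP chaperones were left out. Replicate numbers were not treated as pairs: differences between replicates 1 and 2 in the 2 cultivars correlated with r = 0.0182 across tested probe sets, 0.0685 with the deposited scaling. Alternatives were 2 other added constants, 3 other scalings, 2 other filters, no trend, a replicate block and leaving out each array.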

Additional observations from a re-analysis of the deposited data

How the results depend on the processing

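Both probe sets of HSP18.1, HSP16.9A, HSP16.9B, HSP17.7 and Os.31700.1.S1_at of HSP18.0 kept their direction and call under all 13 alternatives. With the deposited scaling 17956 probe sets were called lower and 1646 higher, of the 10 members 1 was higher, their median was −0.98 (−0.55 over all tested), 0 other heat shock genes were higher in limma (also 0 at an unadjusted p under 0.05), and Os.31700.2.S1_s_at stood at −0.33. With median centring these were 13522 and 2904, 1, −0.74 (−0.31 over all tested), 0 (also 0 unadjusted) and −0.10, and 7 members were lower, Os.519.1.S1_at of HSP18.0 not being called. With trimmed mean scaling 5 members were lower and 3 higher, their median was −0.18, 7 other heat shock genes were higher, and HSP17.4 turned to 0.083, HSP17.9A to 0.091 and Os.519.1.S1_at of HSP18.0 to 0.33. Without a filter the members' median was −0.38, because the dim probe set of HSP17.7 entered, and 1 other heat shock gene was higher. Without a trend or without a filter HSP17.9A and Os.519.1.S1_at were not called, and 6 members were lower. Leaving out 1 array gave a members' median between −0.60 and −0.51, 6 to 8 members lower, 1 to 2 other heat shock genes higher, and 5872 to 7100 probe sets lower and 6768 to 7519 higher in all. With the replicate block 8 members were lower and 2 higher, as without it, and 7684 and 8606 probe sets in all, and the block changed no call of a member.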
